A study of Mus musculus with 2 samples.

Results

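The C-type lectin receptor genes described here were the protein-coding genes on chromosomes 1 to 19 of the mm10 gene table (assembly GRCm38.p6) whose symbols start with Clec followed by a digit. They numbered 33 of 20665 such genes. The symbol alone chose them, and no measured value was used. Of the 33 genes, 25 lay on chromosome 6. These were grouped by position: 9 genes from Clec4a1 to Clec4e and 13 genes from Clec2h to Clec7a formed a pair of clusters, with neighbouring genes at most 1 Mb apart. The other 11 genes were scattered, 3 of them (Clec2l, Clec5a and Clec4f) elsewhere on chromosome 6. With 25 kb added on both sides, the 33 loci overlapped into 18 separate regions of 1836 kb.

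C-type lectin receptors are proteins with a folded domain that binds sugars, lipids or proteins on microbes, dying cells and neighbouring cells. In myeloid cells the activating receptors signal through the kinase Syk, either directly or by way of adaptors such as the Fc receptor gamma chain, while the inhibitory receptors carry tyrosine motifs that recruit phosphatases. A second group, the Clec2 genes of mouse chromosome 6, encodes ligands that are read by receptors of natural killer cells. The symbol Clec also covers secreted and intracellular proteins that are not receptors, and these are described last.

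The mark measured was acetylation of histone H3 at lysine 27 (H3K27ac), found at active promoters and enhancers, by chromatin immunoprecipitation and sequencing. The samples were mouse leukaemia cells labelled MA9, the usual short name for the MLL-AF9 fusion, collected from the bone marrow of primary animals. In the Gata2 f/f library the floxed gene was intact and the cells had received the control vector (MIT); in the Gata2 -/- library, called KO here, the cells had received Cre. Both were sorted for fluorescent markers and cultured for 7 to 9 days with SCF and the interleukins IL-3 and IL-6. There was 1 library per genotype, so no difference below has a replicate check, a standard deviation or a p-value, and differences in genotype, animal and library cannot be told apart.

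On chromosomes 1 to 19 there were 33556 peaks in the f/f list and 36553 in the KO list. The median -log10 p was 12.2 in f/f against 9.41 in KO, and the median fold enrichment over background was 3.51 and 3.09. No source used here gives read numbers, so the depth is unknown. The libraries also differed in sex-linked genes: a peak stood at an end of Xist only in f/f, whereas Uty, Kdm5d and Eif2s3y on chromosome Y had one in KO alone. At Gata2 itself 15.4% of the locus was covered in f/f and 8.41% in KO, with 2 gene-end peaks in each list. Peaks remained on the gene in the KO list, and how much of it the deletion removes is not given in the labels. The part of these differences between the libraries in the results below was not tested. No Clec gene lay in the stretch before the first peak of its chromosome in either list.

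About as many Clec genes as other genes were marked at their ends, and the 2 lists named nearly the same ones. Marking was taken as at least 1 peak of the list no more than 1000 bp from a gene end. In f/f 16 of the 33 were marked (48.5%, 95% Clopper-Pearson interval 30.8 to 66.5, for counting error only), beside 51.9% of all genes. In KO 15 were marked (45.5%), beside 51.8%. The 14 genes marked in both (42.4%, beside 49.1%) were Clec4a1, Clec4a3, Clec4a2, Clec4d and Clec4e of the first cluster, Clec2i, Clec2d, Clec12a, Clec12b and Clec7a of the second, and Clec5a, Clec11a, Clec3a and Clec16a outside them. Neither list marked 16 genes (48.5%, beside 45.4%).

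Few genes were marked in 1 library alone, defined as no peak of the other list within 5000 bp of either end. Clec9a and Clec10a were marked in f/f alone, 2 of 33 or 6.06%, beside 1.88% of all genes. Clec2f was marked in KO alone, 1 of 33 or 3.03%, beside 1.65%. This call depends on the limit, because an f/f peak inside Clec2f lay only just beyond 5000 bp from the marked end. With a -log10 q of at least 5 or a 3-fold minimum, Clec10a and Clec2f were no longer marked in 1 library alone, while Clec9a was under both. The intervals of these shares, 0.743 to 20.2% and 0.0767 to 15.8%, include the shares over all genes.

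Locus coverage was measured as the share, in percent, of gene and 25 kb flanking bases that peaks covered. It had a median of 3.61% in f/f and 4.07% in KO over the 33 genes, beside 3.29% and 3.47% over all genes. Coverage was lower in KO at 18 genes, higher at 11 and equal at 4, beside 34.7% of all genes lower and 41.9% higher. The median difference, KO minus f/f, was -0.18 percentage points against 0 for all genes, and it changed sign, to 0.20, with 50 kb flanks. It was at least 1 point lower in KO at 9 genes (27.3%, interval 13.3 to 45.5; 13.7% of all genes) and at least 1 point higher at 6 (18.2%; 21.9% of all genes). Loci with no covered base in either list were Clec4a4, Clec4f, Clec2h and Clec14a, 4 of 33 (12.1%, beside 23.3%). Neighbours share flanks, so these counts are not independent: of the 18 merged regions 9 were lower in KO, 6 higher and 3 equal.

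For the 15 genes at least 1 point apart, the difference was recomputed under 5 alternatives: a minimum -log10 q, a minimum fold, equal numbers of peaks, and flanks of 10 and 50 kb. It stayed above 0 at Clec4a1 (1.02 to 4.37 points) and Clec4a3 (1.14 to 4.07), and below 0 at Clec2m (-6.93 to -0.18) and Clec1b (-5.38 to -1.93). With 25 kb flanks Clec4a1 and Clec4a3 held the same covered bases, 1337 in f/f and 2740 in KO, so they are not independent. With these flanks the covered bases of Clec1b were those of peaks at Clec12b and Clec9a. The difference reached 0 but did not change sign at Clec4b2 (0 to 3.43) and Clec10a (-3.42 to 0). At the other 9 genes it changed sign under at least 1 alternative, as given beside each of them.

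**Figure D1:**
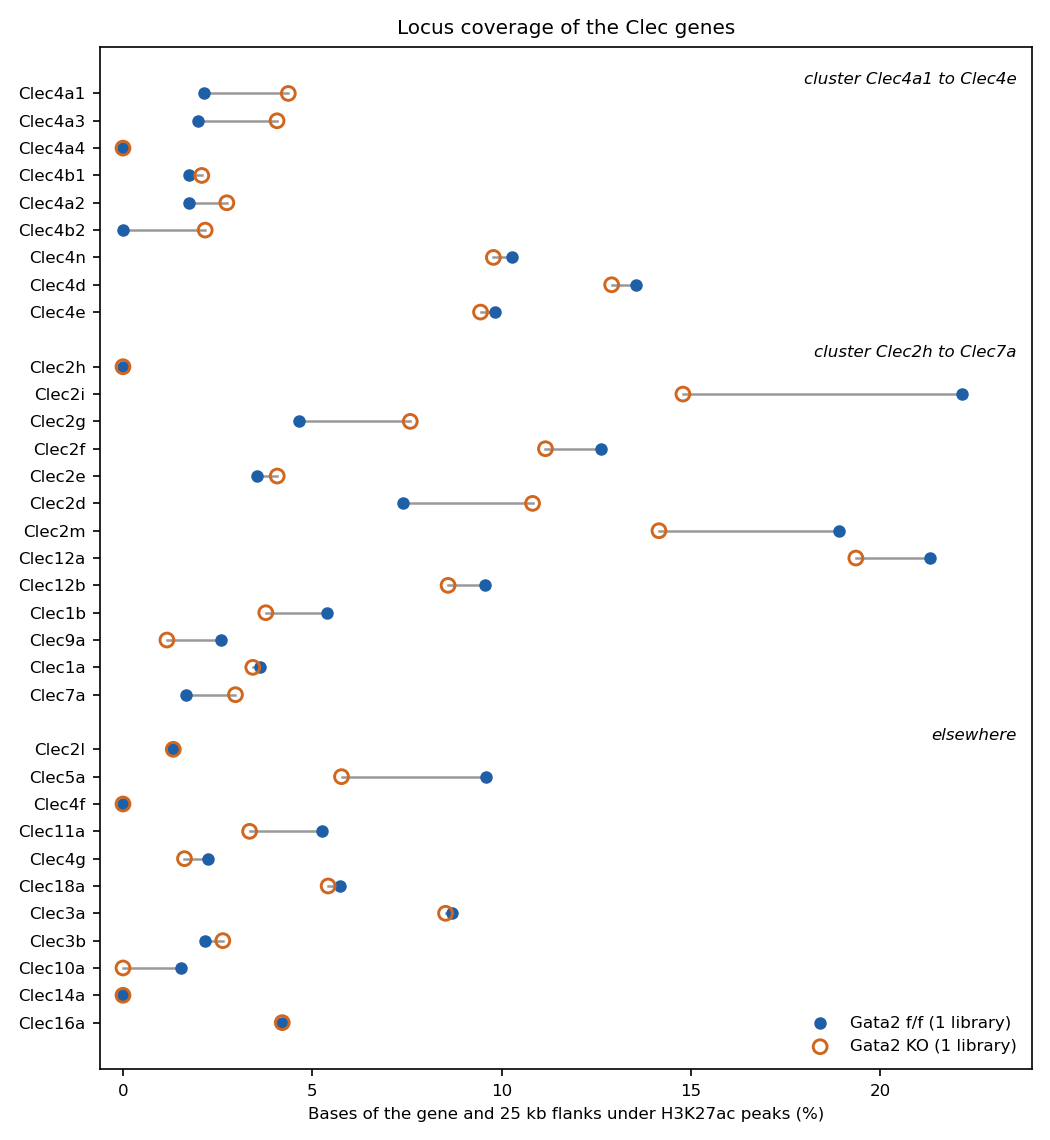
Locus coverage in percent of bases (horizontal axis) of each of the 33 Clec genes (vertical axis), with 1 point for the f/f and 1 for the KO library. Clec2i, Clec12a and Clec2m were the most covered in f/f, at 22.2%, 21.3% and 18.9%, and Clec4a4, Clec4f, Clec2h and Clec14a lay at 0 in both.

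The Clec4a1 to Clec4e cluster holds myeloid receptors of both signs: the inhibitory receptor Clec4a2 and its relatives, and the activating receptors Clec4n (Dectin-2), Clec4d and Clec4e (Mincle). It was the cluster with more covered bases in KO. Peaks covered 12.4 kb in f/f (9 peaks) and 16.1 kb in KO (11 peaks) of 417 kb, or 2.97% and 3.86%, a ratio of 1.30 against 1.05 over all protein-coding loci. With only peaks of at least 3-fold enrichment in both lists, the ratio turned to 0.531.

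Clec4a2 encodes DCIR, a receptor with an inhibitory tyrosine motif. The peak over its start was 1248 bp wide in f/f (fold 3.87, -log10 p 9.99) and 1955 bp in KO (2.82 and 11.4). Its relative Clec4a3 had a start peak of 664 bp in f/f (3.17 and 5.78) and 1090 bp in KO (4.10 and 10.4). At Clec4a1 the peak lay at the 3′ end, with 673 bp in f/f against 1071 bp in KO. All 3 peaks were wider in KO, and a further KO peak of 579 bp (fold 3.80, -log10 p 12.0) stood between Clec4a1 and Clec4a3 with no f/f peak over it. The Clec4a1 and Clec4a3 loci hold the same covered bases, so their values are not independent. Coverage went from 2.13% to 4.37% at Clec4a1, from 1.98% to 4.07% at Clec4a3 and from 1.75% to 2.74% at Clec4a2. Clec4a4, the DCIR2 gene, had none in either list, the nearest peaks being 37.5 kb and 37.3 kb away. Of the related activating genes, Clec4b1 was at 1.74% and 2.08%, from a shared peak 23.4 kb away in both lists. Clec4b2 was at 0% in f/f and 2.17% in KO, from 1 weak KO peak within the gene (1775 bp, fold 2.35, -log10 p 3.14), which was not kept at a -log10 q of at least 5.

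The activating receptors at the other end of the cluster differed little. Clec4e, which senses mycobacterial glycolipid and dying cells, had a start peak of 1663 bp in f/f (fold 4.12, -log10 p 42.8) and 1579 bp in KO (3.64 and 35.0), the highest -log10 p of any peak in this cluster in both lists. Clec4d, its partner receptor, had a peak 420 bp before its start in f/f and 317 bp before it in KO, and an intragenic peak of 2285 bp in f/f (-log10 p 27.2) and 1940 bp in KO (16.5). Clec4n, the receptor for fungal mannans, had no gene-end peak, and a shared peak of 668 bp in f/f against 546 bp in KO inside the gene. Coverage was 9.83% and 9.44% at Clec4e, 13.5% and 12.9% at Clec4d and 10.3% and 9.78% at Clec4n, each slightly lower in KO, but these 3 loci share peaks.

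**Figure D2:**
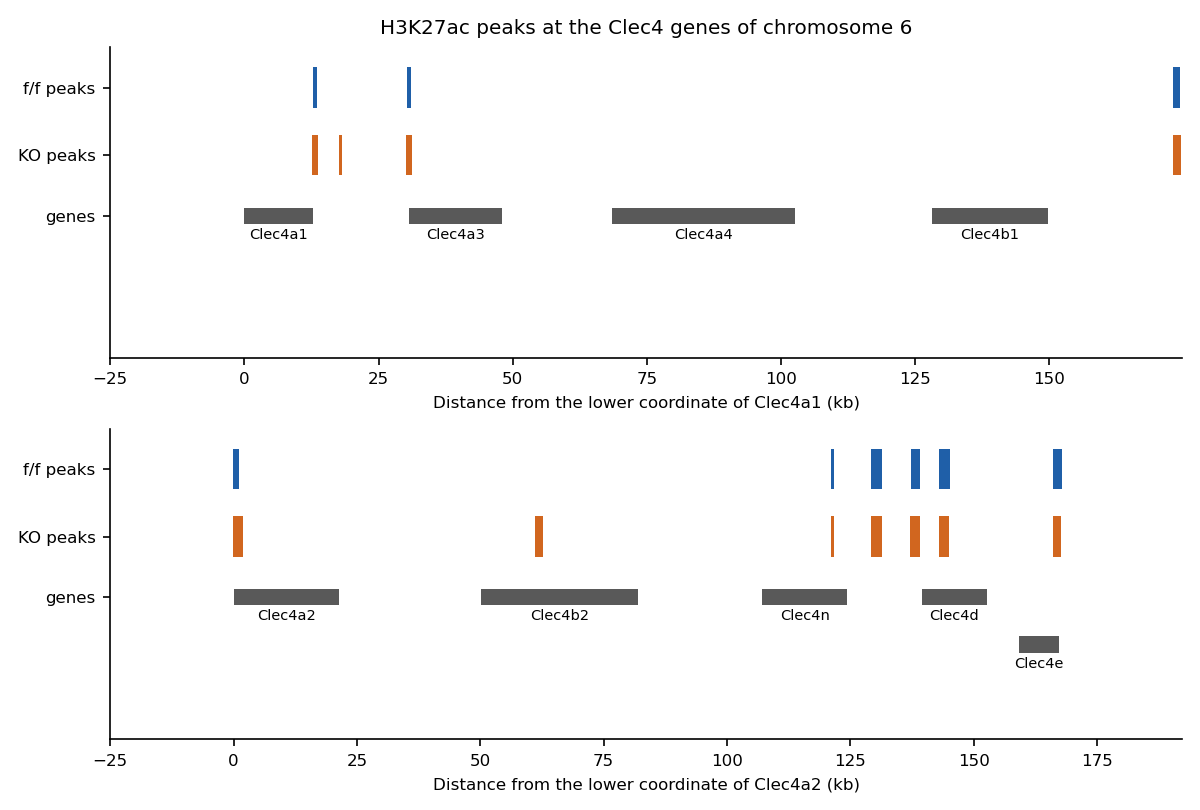
Peaks of the f/f and KO lists (upper rows) and gene bodies (grey) in both merged regions of the Clec4a1 to Clec4e cluster, by distance in kb from the lower coordinate of the first gene. Peaks gather at Clec4a1 and Clec4a3 and from Clec4n to Clec4e in both lists, with the KO peak in Clec4b2 standing alone.

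The Clec2h to Clec7a cluster lies within the natural killer gene complex and had a larger share of its bases under peaks than the Clec4a1 to Clec4e cluster or the scattered Clec loci pooled. Peaks covered 47.3 kb in f/f (30 peaks) and 46.0 kb in KO (27 peaks) of 564 kb, or 8.39% and 8.15%, a ratio of 0.972. Most of its peaks were low: 20 of 30 in f/f and 21 of 27 in KO were below 3-fold, against 32.9% and 46.8% of peaks on chromosomes 1 to 19. With only peaks of at least 3-fold the ratio was 0.624.

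The Clec2 ligand genes differed among themselves. Clec2d encodes Clr-b, the ligand of the inhibitory receptor Klrb1b, and is carried by most blood cells. Its start peak was much the same, with 2268 bp in f/f (fold 3.35, -log10 p 26.0) and 2367 bp in KO (2.94 and 23.2). Coverage of the locus was 7.40% in f/f and 10.8% in KO, with flanking peaks that were wider in KO, 1620 against 1065 bp and 2060 against 805 bp. This direction did not hold among stronger peaks: the difference of 3.41 points became -1.73 at a -log10 q of at least 5 and -3.06 at 3-fold.

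Clec2i, which encodes Clr-g, had the widest peak of all Clec loci, 5256 bp in f/f (fold 2.24, -log10 p 36.3) and 3414 bp in KO (2.30 and 20.2). It began 90 bp after the nearer RefSeq start in f/f and 87 bp after it in KO, so that the 250 bases before the start were outside the peak in both lists. The same peak lies at an end of the neighbouring gene BC035044. The 250 bases before the other RefSeq start are shown because they hold a GATA motif, which lies outside the peak. They stand at chr6:128887337-128887586 (GRCm38.p6, plus strand, from RefSeq). The motif TTATCA, the reverse complement of TGATAA, is in capitals 70 bases before that start and 73 bases before the nearer one.
Clec2i: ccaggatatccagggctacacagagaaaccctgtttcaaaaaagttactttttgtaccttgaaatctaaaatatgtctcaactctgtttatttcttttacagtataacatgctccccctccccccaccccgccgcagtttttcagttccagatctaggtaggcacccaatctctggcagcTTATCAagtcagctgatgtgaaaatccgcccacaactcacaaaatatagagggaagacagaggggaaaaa

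Coverage of the Clec2i locus was 22.2% in f/f against 14.8% in KO, a difference of -7.38 points. Over the alternatives this ran from -13.3 points (10 kb flanks) and -12.8 (equal numbers of peaks) through -1.33 (-log10 q of at least 5) to 1.71 (3-fold). Clec2f was at 12.6% and 11.2%. Its KO peak at 1 gene end was 2434 bp wide (fold 2.37, -log10 p 6.52), while f/f had a peak of 1123 bp inside the gene. With 10 kb flanks Clec2f was 3.95 points higher in KO, and the same sign came with 50 kb flanks (1.06). Beyond Clec2f, both lists had a pair of wide peaks in the stretch before Klrb1f, of 1802 and 3591 bp in f/f (-log10 p 46.6 and 28.2) and 1628 and 1826 bp in KO (16.9 and 17.8). Clec2g was at 4.64% and 7.59%. Inside the gene, a KO peak of 2946 bp (fold 2.19, -log10 p 14.4) had no f/f peak over it. An f/f peak of 1131 bp (2.76 and 4.69), also inside, had no KO peak over it. The flanks held further unshared peaks, of 713 bp in KO and of 445 and 474 bp in f/f, and part of the Clec2f KO peak. The Clec2g difference ran from -0.35 points (50 kb flanks) to 5.05 (-log10 q of at least 5). Clec2m was at 18.9% and 14.2% from peaks outside the gene, Clec2e at 3.53% and 4.07%, and Clec2h at 0 in both.

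Clec12a encodes an inhibitory receptor that senses uric acid crystals, and its human counterpart is used as a surface marker of acute myeloid leukaemia cells. Its start was under a peak in f/f alone. The f/f peak was 2442 bp wide (-log10 p 11.9), with a fold of 1.86 that put it at percentile 0.805 of its list. The nearest KO peak was 431 bp wide (fold 1.60, -log10 p 4.85) and began 1007 bp after the RefSeq start. Within the gene, f/f had a peak of 3619 bp (fold 2.20, -log10 p 22.8) where KO had 2300 bp (1.92 and 8.92). Towards the 3′ end the order was the other way, with 1669 bp in f/f against 3079 bp in KO, and so it was upstream, with 2224 bp and 3035 bp. The gene was thus marked in both lists, in KO at its 3′ end only. Coverage was 21.3% in f/f against 19.3% in KO, a difference of -1.95 points. It was -7.26 with a -log10 q of at least 5, -5.30 with equal numbers of peaks, -2.85 at 3-fold and -1.07 with 50 kb flanks, but 1.93 with 10 kb flanks. The 250 bases before the start, under the f/f peak only, stand at chr6:129349994-129350243 (plus strand) and hold neither motif searched.
Clec12a: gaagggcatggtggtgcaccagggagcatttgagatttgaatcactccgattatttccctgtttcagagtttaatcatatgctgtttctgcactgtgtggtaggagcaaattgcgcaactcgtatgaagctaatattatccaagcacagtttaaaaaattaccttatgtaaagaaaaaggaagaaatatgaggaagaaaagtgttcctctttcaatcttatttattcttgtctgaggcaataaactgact

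Clec7a encodes Dectin-1, the receptor for fungal beta-glucan, and showed the opposite at its start. Its peak was 1817 bp wide in KO (fold 2.78, -log10 p 5.36) and reached the start, whereas the f/f peak was 1014 bp wide (3.38 and 7.74) and ended 895 bp short of the nearer start. Coverage was 1.66% in f/f against 2.97% in KO. Under both a -log10 q of at least 5 and a 3-fold minimum only the f/f peak was left, and the difference of 1.31 points became -1.66; with 10 kb flanks it was 2.57. The 250 bases before the outer RefSeq start, at chr6:129472786-129473035 (minus strand), are shown as the only Clec promoter window that was under a peak in KO and not in f/f; they hold neither motif.
Clec7a: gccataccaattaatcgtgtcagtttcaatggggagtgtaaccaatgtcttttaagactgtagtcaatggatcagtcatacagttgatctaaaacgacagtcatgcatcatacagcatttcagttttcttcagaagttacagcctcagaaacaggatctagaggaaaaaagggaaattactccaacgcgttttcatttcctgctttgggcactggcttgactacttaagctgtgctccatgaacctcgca

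Clec9a, a receptor of dendritic cells for actin filaments exposed by dead cells, was marked in f/f alone. One f/f peak of 841 bp (fold 3.98, -log10 p 9.23) ended 961 bp before the start and another of 862 bp (4.09 and 10.5) lay at the 3′ end, both below the list's median -log10 p. The nearest KO peak was 9.77 kb away, inside Clec1a (764 bp, fold 2.88, -log10 p 4.78). Coverage was 2.58% in f/f against 1.16% in KO, a difference that ran from -4.09 points (10 kb flanks) to 1.76 (50 kb flanks). Both f/f peaks also lie within Clec12b, which in the gene table runs across Clec1b and Clec9a. Clec12b itself, an inhibitory receptor, was marked only at its 3′ end, by peaks of 1421 bp and 2191 bp. Clec1b, the podoplanin receptor of platelets, was at 5.38% and 3.77%, and Clec1a, an endothelial and myeloid receptor for fungal melanin, at 3.61% and 3.43%. Neither had a gene-end peak in either list. The covered bases of the Clec1b locus were those of the Clec12b 3′ end peaks and, in f/f only, of both Clec9a peaks.

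**Figure D3:**
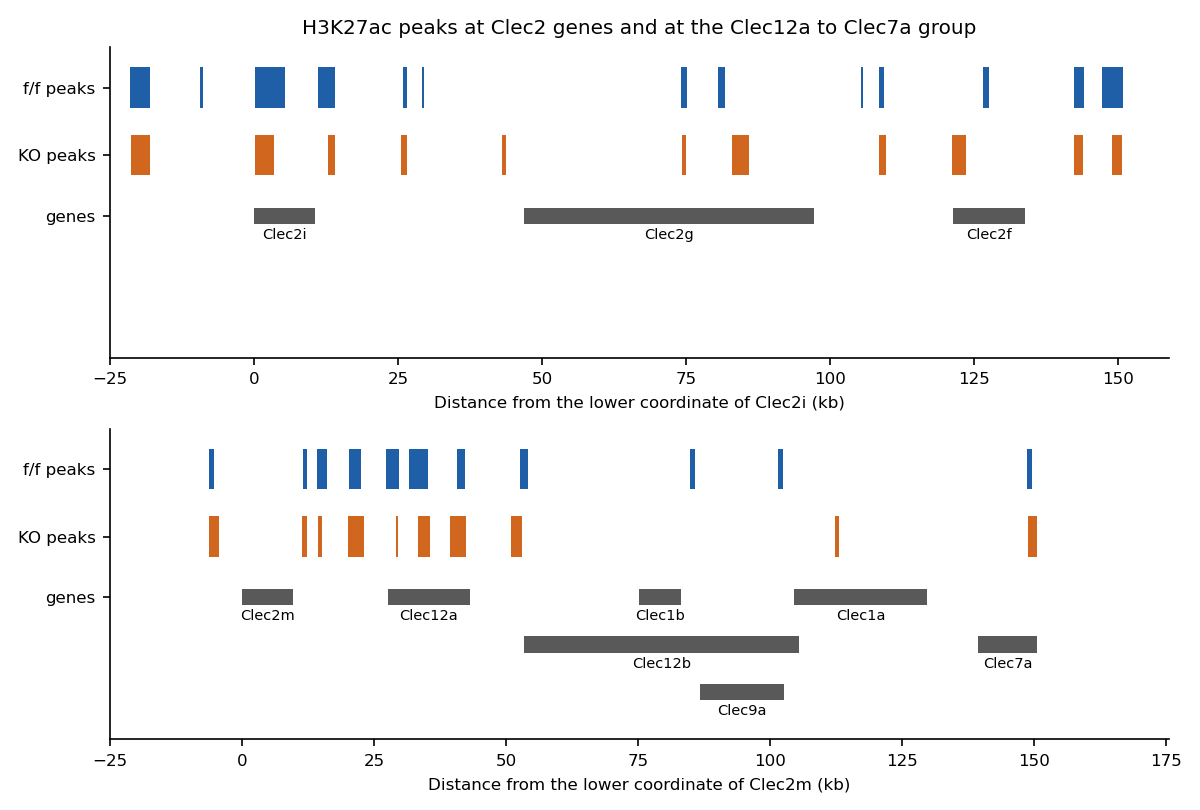
Peaks of the f/f and KO lists and gene bodies (grey) in the regions of Clec2i to Clec2f (upper panel) and Clec2m to Clec7a (lower panel), by distance in kb from the lower coordinate of the first gene. Peaks gather from Clec2m to Clec12a in both lists, and those at the ends of Clec9a are in f/f alone.

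Outside both clusters, peaks covered 32.9 kb in f/f (30 peaks) and 28.3 kb in KO (28 peaks) of 855 kb, or 3.84% and 3.31%, a ratio of 0.860. Clec5a, a myeloid receptor that signals through the adaptor Tyrobp, had a similar start peak in both, 1573 bp in f/f (fold 2.41, -log10 p 7.13) and 1824 bp in KO (2.40 and 7.43), and a shared upstream peak of 1707 and 1690 bp. A further pair of f/f peaks, of 473 bp (-log10 p 3.46) and 2083 bp (4.34), had no KO peak over them. Coverage was 9.58% in f/f against 5.77% in KO. The difference of -3.81 points ran over the alternatives from -7.62 (10 kb flanks) to 0.38 (-log10 q of at least 5). Clec10a, the galactose-binding receptor of macrophages and dendritic cells, had 1 weak f/f peak at a gene end (827 bp, fold 2.46, -log10 p 3.40) and no KO peak within its locus, a coverage of 1.53% and 0%. Clec4f, a Kupffer cell receptor, was at 0 in both lists, and Clec4g, of liver sinusoidal endothelium, was at 2.24% and 1.62%.

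The remaining genes encode no pattern receptor of myeloid cells. Clec11a, a secreted growth factor of the bone marrow, had the peak with the highest fold of the gene-end peaks, 6.08 in f/f (1170 bp, -log10 p 163) and 5.24 in KO (1374 bp, 73.3). This peak lay at the 3′ end, 1731 and 1423 bp from the start. Its coverage of 5.25% in f/f against 3.34% in KO differed by weak peaks further out and was 0.38 points higher in KO with either stricter peak set. Clec3a was marked at a gene end by a shared peak of 1860 bp in f/f against 1791 bp in KO (8.70% and 8.52% coverage). Clec18a was at 5.72% and 5.42%, with its strongest peaks at the ends of Exosc6, Aars and Pdpr. A shared peak inside Clec18a, 1349 bp wide in f/f and 1096 bp in KO, lay 357 and 744 bp from its RefSeq start. That peak was not within 1000 bp of an end in the gene table, so Clec18a was not marked. Clec3b was at 2.17% and 2.64%. Clec14a, of endothelium, was at 0 in both lists and Clec2l at 1.33% in both.

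Clec16a encodes an intracellular regulator of endosomes and mitophagy that is expressed in most tissues. Its start peak was 975 bp wide in f/f (fold 3.97, -log10 p 27.8) and 1038 bp in KO (3.69 and 21.5), and coverage was 4.19% and 4.20%. Among the 26 Clec genes with a RefSeq promoter window, it was the only one whose window was under a peak and whose upstream bases held a GATA motif. It was 1 of 8 Clec genes with a window under a peak in either list (12.5%). The share was 16.6% of the 8746 protein-coding genes with such a window. That motif, AGATAG, is in capitals 164 bases before the start in the sequence at chr16:10545089-10545338 (plus strand).
Clec16a: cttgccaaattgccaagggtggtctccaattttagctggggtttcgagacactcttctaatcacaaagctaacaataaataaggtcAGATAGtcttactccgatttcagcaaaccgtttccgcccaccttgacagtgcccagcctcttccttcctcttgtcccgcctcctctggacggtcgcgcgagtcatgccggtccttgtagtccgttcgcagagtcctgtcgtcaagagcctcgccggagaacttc

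RefSeq promoter windows, 250 bases before to 50 after each start, were found for 26 of the 33 genes and for 16457 genes in all. Only 7 of the 26 windows were under a peak in f/f (26.9%, interval 11.6 to 47.8), beside 51.4% of all genes, and 7 in KO (26.9%), beside 50.6%. Both lists held those of Clec5a, Clec4a3, Clec4a2, Clec4e, Clec2d and Clec16a. Many of the gene-end peaks at Clec genes thus lay at the 3′ end or beside the start. The window count was added after the data were seen. The GATA motif was searched as AGATAA and in the variant form AGATAG, then as TGATAA and in its variant form TGATAG, on both strands of the 250 bases before the start. They occurred in 8 of 26 Clec genes (30.8%): Clec4b2, Clec2h, Clec2i, Clec2e, Clec2m, Clec1b, Clec4g and Clec16a. Over all genes the share was 26.7%. The PU.1/ETS motif GAGGAAGT, also on both strands and which overlaps none of the GATA forms, occurred in 0 of 26, beside 2.62% of all genes. A match is a run of letters and was not tested as a binding site.

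Most peaks of the Clec loci were in both lists. Of 69 f/f peaks 54 (78.3%, interval 66.7 to 87.3) had 1 bp or more in common with a KO peak, beside 83.9% on chromosomes 1 to 19, and of 66 KO peaks 54 (81.8%, 70.4 to 90.2) overlapped an f/f peak, beside 77.3%. All 22 f/f peaks at or above the list's median -log10 p were shared (interval 84.6 to 100), beside 97.6%. Of the 28 such KO peaks 26 were shared (92.9%), beside 95.8%; the others were the peaks between Clec4a1 and Clec4a3 and within Clec2g. Among peaks below the median, 68.1% of f/f peaks were shared, beside 70.2% on chromosomes 1 to 19, and 73.7% of KO peaks (interval 56.9 to 86.6), beside 59.0%. Of 54 one-to-one pairs 30 were narrower in KO (55.6%, interval 41.4 to 69.1), beside 52.2% of all pairs. In the lowest 10% of their list by fold were 11 f/f and 8 KO peaks of the Clec loci, 7 and 6 of them in the Clec2h to Clec7a cluster.

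**Figure D4:**
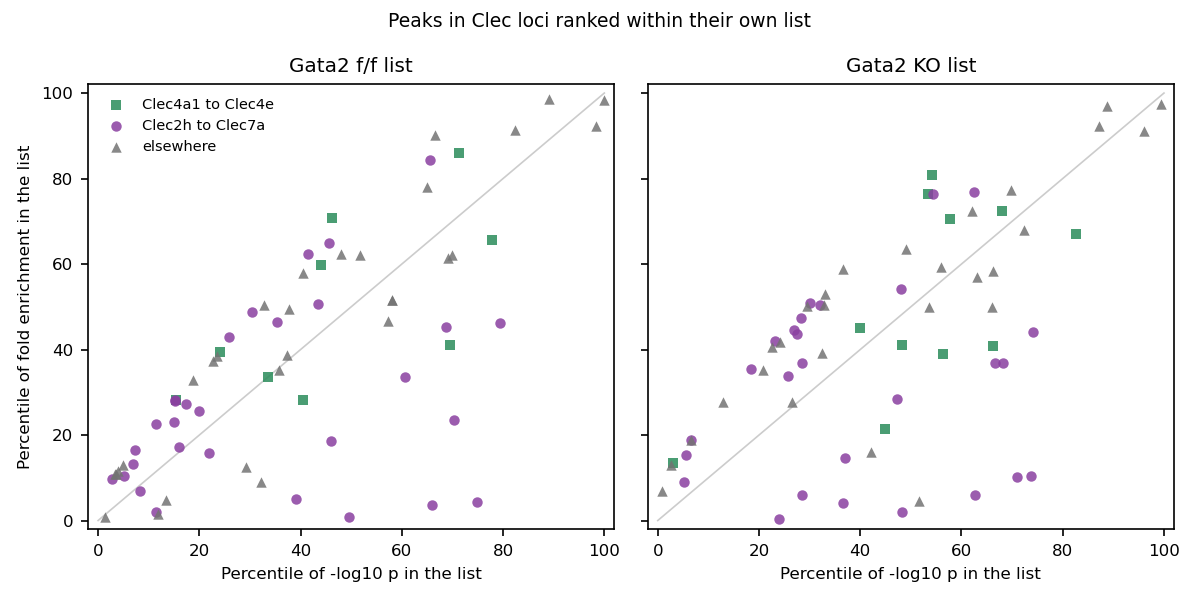
Each point is 1 peak in a Clec locus, placed by the percentile of its -log10 p (horizontal axis) and of its fold enrichment (vertical axis) within its own list, f/f on the left and KO on the right. Several points of the Clec2h to Clec7a cluster lie far below the diagonal in both panels, and 7 f/f and 6 KO peaks of this cluster are in the lowest 10% by fold, some of them on or above the diagonal.

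The signalling genes that act after these receptors were marked in a larger share than the receptors, a difference that was not tested. Of 24 genes of the Syk and adaptor pathway 21 were marked in f/f (87.5%, beside 51.9% of all genes) and 19 in KO (79.2%, beside 51.8%). Their coverage was higher in KO at 16 and lower at 8, beside 41.9% of all genes higher and 34.7% lower. The median difference was 0.55 points. Syk went from 11.5% in f/f to 16.6% in KO, and the adaptor Card9 from 8.30% to 12.3%. The adaptor genes Fcer1g (10.4% and 12.3%) and Tyrobp (18.2% and 19.6%) were covered in both. Lyn (8.99% and 0%) and Src (2.42% and 0.39%) were marked in f/f alone, but Lyn lies before the first peak of the KO list on chromosome 4, at position 4459322. The phosphatase genes of the inhibitory receptors, Ptpn6, Ptpn11 and Inpp5d, were marked in both lists, at 20.8% and 21.0%, 9.66% and 11.0%, and 9.02% and 7.93%. Among ligands and partners, Pdpn, the ligand of Clec1b, was at 4.67% and 4.98% with no gene-end peak, and Actb was at 26.7% and 20.2%.

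Marker lists of cell types moved between the lists as well. Over all genes 51.9% were marked in f/f and 51.8% in KO. Of 10 neutrophil markers 4 were marked in f/f and 8 in KO, with 35.2 kb and 60.0 kb covered in sum; only Retnlg was uncovered in f/f and none in KO. Of 10 monocyte and macrophage markers 6 were marked in f/f and 9 in KO (41.8 and 51.0 kb), and Marco was uncovered in both lists. Of 10 dendritic markers 6 were marked in each list, 5 of them the same, and Cd209a was uncovered in f/f. Their covered bases summed to 58.6 kb in f/f and 41.8 kb in KO, but most of the 10 did not follow this sum. Coverage was higher in KO at 6 of them and lower at 4 (Tcf4, Irf8, Flt3 and Batf3), with a median difference of 0.65 points. Over all genes 41.9% were higher and 34.7% lower. Flt3 is also among the progenitor markers. Progenitor markers were marked at 10 of 10 in f/f and 8 of 10 in KO (152 and 139 kb). Of 10 NK and T cell markers 1 was marked in f/f against 2 in KO, and Cd8a and Gzmb were uncovered in both. Megakaryocyte and platelet markers were marked at 2 of 8 in f/f and 3 of 8 in KO (22.8 and 29.8 kb). B cell markers were marked at 2 of 6 in f/f and 1 of 6 in KO (14.9 and 11.4 kb). Each list marked 1 of 5 mast cell and basophil markers (21.3 and 17.7 kb). Each also marked 2 of 8 stromal, endothelial and liver markers (26.7 and 23.9 kb). Overlapping loci were not merged for these kb sums, so bases shared by neighbouring genes count more than once. The overlapping Hoxa9 and Hoxa10 loci of the progenitor list each held 25258 covered bases in f/f against 21253 in KO. In the neutrophil list the S100a8 and S100a9 loci also overlap. The part of the marker lists in the differences at the Clec genes was not tested.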

How the data were processed

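H3K27ac ChIP-seq of 1 Gata2 f/f and 1 Gata2 KO library was used as deposited, as a broad peak list per library and grouped by labelled genotype. Reads were processed with BWA, SAMtools and MACS2 on mm10, per the submitters' processing notes; no source used here gives versions, options, the control library or read numbers. Each deposited peak has a position, a score (not used), a fold enrichment over background (a ratio), a -log10 p and a -log10 q, all set by the authors' peak calls. The lowest deposited -log10 q of each list was 1.01. A list from more reads or better enrichment can hold more and wider peaks, so fold and p were ranked only within a list. The alternatives with a minimum -log10 q or a minimum fold applied the same minimum to both lists. They can therefore remove unequal shares of the lists.

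Peaks on chromosomes 1 to 19 were joined in Python 3.11.15 (pandas 2.3.3, scipy 1.17.1) to gene ends, gene loci with 25 kb flanks and RefSeq promoter windows (GRCm38.p6); the joins were checked on simulated peaks. The gene table has no strand, so both gene ends within 1000 bp count. Windows gave strand, and 777 of 777 overlapping windows of opposite strands held the same bases. Shares have 95% Clopper-Pearson intervals. The genes and lists were chosen with earlier results of these data known. All Clec genes could be named; of other lists, genes marked in 1 library alone and those with the largest coverage differences were, and Fcer1g, Tyrobp, Pdpn and Actb for their role in Clec signalling. Alternatives were a -log10 q of at least 5, at least 3-fold enrichment, equal numbers of peaks (34272), other gene-end windows (500 and 2000 bp), flanks (10 and 50 kb) and overlaps, and, added after the data were seen, promoter windows in place of gene ends. Planned counts of protein motifs were not run. Some genes that the naming rule takes from the other lists were not reported here.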

Additional observations from a re-analysis of the deposited data

How the results depend on the processing

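Read numbers are unknown, so what depth limits could not be measured. The 3-fold minimum left out 46.8% of KO peaks and 32.9% of f/f peaks on chromosomes 1 to 19. Values under it are therefore not on an equal footing between the lists. With peaks of at least 3-fold in both lists (23036 in f/f, 19919 in KO), gene-end peaks were at 9 Clec genes in f/f, 5 in KO and 5 in both, those marked by a single list being 4 in f/f (Clec4a2, Clec2d, Clec9a and Clec7a) and 0 in KO. Coverage was then higher in KO at 7 genes and at least 1 point lower at 14, the median difference was -0.29 points, the KO to f/f ratio was 0.531 for Clec4a1 to Clec4e and 0.624 for Clec2h to Clec7a, and 59.5% of f/f peaks were shared. With a -log10 q of at least 5, 9 genes were marked in both lists and 2, Clec4a1 and Clec4a3, in KO alone, 3 were at least 1 point higher in KO, and the median difference was -0.0059 points. With equal numbers of peaks the median difference was -0.29 points. It was 0 with 10 kb flanks, where 11 genes were at least 1 point higher in KO, and 0.20 with 50 kb flanks, where 19 genes were higher. With promoter windows in place of gene ends, 7 genes were marked in f/f and 7 in KO.

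Single genes changed sign as follows, in points of KO minus f/f coverage. At a -log10 q of at least 5, Clec5a was at 0.38, Clec2d at -1.73, Clec7a at -1.66 and Clec11a at 0.38. At 3-fold, Clec2i was at 1.71, Clec2d at -3.06, Clec7a at -1.66 and Clec11a at 0.38. With 10 kb flanks Clec2f was at 3.95 and Clec12a at 1.93. With 50 kb flanks Clec2f was at 1.06, Clec2g at -0.35, Clec9a at 1.76 and Clec11a at 0.30. Gene-end windows of 500 and 2000 bp, a 1000 bp distance for the other list and the stricter overlap left each count within 1.5 times its value. The cause of each change was not tested. No paired analysis was possible because there was 1 library per genotype.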

Other observations

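Of 38 genes with a C-type lectin domain but other symbols, 11 were marked in f/f (28.9%, beside 51.9% of all genes) and 12 in KO (31.6%, beside 51.8%). Coverage was lower in KO at 16, higher at 8 and equal at 14, beside 34.7% of all genes lower and 41.9% higher. It was at least 1 point lower at 26.3% (13.7% of all genes) and at least 1 point higher at 2.63% (21.9% of all genes). Bcan, a brain proteoglycan, was marked in f/f alone (4.22% and 0%), and Mrc1, the macrophage mannose receptor, in KO alone (1.19% and 1.58%). Fcer2a, the low-affinity IgE receptor, went from 12.2% in f/f to 8.58% in KO, and Olr1, the oxidised lipoprotein receptor beside Clec7a, from 7.81% to 9.73%.

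Of 31 other genes listed as natural killer complex genes, of which Klrg1 and Klrg2 lie elsewhere on chromosome 6, 5 were marked in f/f (16.1%, beside 51.9% of all genes) and 4 in KO (12.9%, beside 51.8%). Coverage was lower in KO at 14, higher at 3 and equal at 14, beside 34.7% of all genes lower and 41.9% higher. Some of these loci share covered bases, such as Klrd1 and Klrk1, so the counts are not independent. Olr1 is also among the lectin domain genes above. Klra17 was marked in f/f alone, by a peak with a -log10 p of 6.55. Klrb1b, which encodes the receptor of the Clec2d product, was at 11.3% in f/f and 7.59% in KO with no gene-end peak. Cd69, an activation marker of lymphocytes, was marked in both lists, at 11.8% and 9.42%. These are values of 1 library each, and no difference was tested.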
